A study of Mus musculus with 36 samples.

Results

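The antibody genes of the mouse lie in 3 loci, with the heavy chain on chromosome 12, the kappa light chain on chromosome 6 and the lambda light chain on chromosome 16. Described here are the 208 of 41174 probes on the liver microarrays that lie in intervals around these loci (mouse build mm8) or whose name in the array files starts with Igh, Igk, Igl or Igj. Of these, 156 were taken by position only, 46 by position and name, and 6 by name only. There were 97 on chromosome 12, 90 on chromosome 6, 19 on chromosome 16 and 2, both for the J chain gene, on chromosome 5. The loci were chosen by the measured quercetin minus control log2 difference of a chromosome 12 probe, which was low, so the differences between those groups are given below as a description, and nothing is read from them.

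Liver RNA came from 36 adult male C57BL/6J mice, 12 per group (strain as in the sample labels; the study's methods give the substrain C57BL/6JOlaHsd), and each array holds the Cy5-labelled RNA of a single liver and a Cy3-labelled reference pool of all livers. All mice first received a mild-high-fat diet with 30% of its energy as fat, for 3 weeks by the sample labels. The baseline group was then killed at 0 weeks of intervention. The control group stayed on the same diet for 12 more weeks, and the quercetin group received it for 12 weeks with 0.33% (w/w) quercetin added. The age in weeks is not in the labels. Control and baseline mice differ by 12 weeks of age as well as by 12 weeks of diet, and these cannot be told apart. Values are log2(Cy5/Cy3) after normalization, so that 0 is the level of the reference pool, and a value above 0 means more transcript than in the pool. Levels of different probes are not compared with each other.

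Antibodies are made by B cells and, in quantity, by plasma cells, the secreting end stage of the B lineage. Each B cell joins a variable segment to a constant region: mu for IgM, gamma for IgG, alpha for IgA and epsilon for IgE in the heavy chain, and kappa or lambda in the light chain. The J chain links IgM and IgA units into the polymers that epithelia export. Hepatocytes are not a source of antibodies, but whole liver also holds lymphocytes and blood. In whole tissue, fewer cells of a type and less RNA per cell cannot be told apart.

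The arrays differed little in depth apart from quercetin replicate 2. The median Cy5 signal was 2.04 to 2.59 times background in the baseline group, 2.14 to 3.24 in the control group and 2.09 to 8.96 in the quercetin group, and the highest of these is quercetin replicate 2, on which 96.7% of spots were well above background. Leaving that array out on its own changed no call of the members still tested, but Ighg2b (A_52_P74106) and Igkv4-58 (A_52_P546162) then fell under the brightness limit. The quercetin call of Ighg2b could therefore not be made without it, which left 7 members higher than baseline in place of 8. The hepatocyte markers on the array, Alb, Apoa1, Ttr, Tat, Cps1 and G6pc, were well above background on all 36 arrays.

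Most of the antibody gene probes were dim in liver. Only 32 of the 208 (15.4%) counted as expressed in any comparison, against 44.9% of all probes, where expressed means a mean Cy5 and a mean Cy3 signal over 2 times background on the arrays compared. By class, 10 of 18 heavy chain constant probes, 3 of 4 lambda constant, 1 of 2 J chain, 6 of 76 kappa variable and 3 of 62 heavy variable probes passed. None of the 6 lambda variable, 2 kappa constant or 2 surrogate light chain (Igll1, a part of the receptor of immature B cells) probes did. The intervals also hold 17 probes of other genes, of which 6 passed, and 17 unnamed probes, of which 3 passed. The remaining 2 probes carry a kappa segment name in the files but are described there as mammary tumour virus envelope, and did not pass. Well above background on none of the 36 arrays were 5 members (2.4%), all of them kappa variable probes, and 2.49% of all probes. A count over the expressed members therefore describes those 32 and not the 208.

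Several constant region probes carry only a general name in the files. Ighm, Ighd, Ighe, Ighg2c and Iglc3 are named there, whereas Igha, Ighg1, Ighg2b, Ighg3, Iglc1 and Iglc2 were named here by the position of the probe between them along the locus and by the descriptions of neighbouring probes. Variable segments, and the constant regions of the gamma and the lambda genes, resemble each other, so a probe may read more than its own segment.

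The control group had higher levels than the baseline group for mu, alpha, lambda and J chain transcripts and for a kappa variable probe. Of the 30 members tested, 14 were higher and 2 lower (limma, Benjamini-Hochberg adjusted over 17778 probes), where 24.9% of all probes were called, 12.6% higher and 12.3% lower. The median log2 difference was 0.18 over the 30 members and 0.01 over all probes. Among the 21 immunoglobulin segments and J chain probes 11 were higher, the Ighm probe that led to the choice of loci among them, and 1 was lower, with a median of 0.46. The calls lay mostly in the constant regions and in the J chain. Higher were 6 of 9 heavy constant, 3 of 3 lambda constant, 1 of 5 kappa variable and 0 of 3 heavy variable probes. The 6 heavy constant probes were 3 of Ighm and 3 of Igha, so they stand for 2 genes. The control values of Ighm entered the choice of loci, so the mu calls are a description and not separate support.

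The quercetin group had higher levels than the same baseline mice for alpha, lambda and J chain transcripts and for the same kappa variable probe. The 4 mu probes differed by -0.09 to 0.09. The quercetin values of Ighm entered the choice of loci, so the mu differences are a description. Of 32 members tested 8 were higher and 2 lower, where 17% of all 18360 probes were called, 8.39% higher and 8.59% lower. The median was 0.02 over the members and -0.00 over all probes. All 8 higher probes were among the 23 immunoglobulin segments and J chain probes, and 1 of them, Ighg2b, passed the brightness limit only with quercetin replicate 2. In no tested member did the quercetin mice all lie above or all below the baseline mice, as they did for 0.207% and 0.0654% of all probes. Because both comparisons use the 12 baseline arrays, they are not independent, and their values are given side by side for each member. The sizes depended on the background correction. With the scanner software's own processed signals, 16 of the 26 called differences from baseline were over 1.5 times as large, and with plain subtraction of the background 10 were. With the processed signals Jchain differed by 1.065 in the control and 0.86 in the quercetin mice, Iglc2 by 0.92 and 0.81, and Iglc3 by 0.92 and 0.69.

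**Figure D1:**
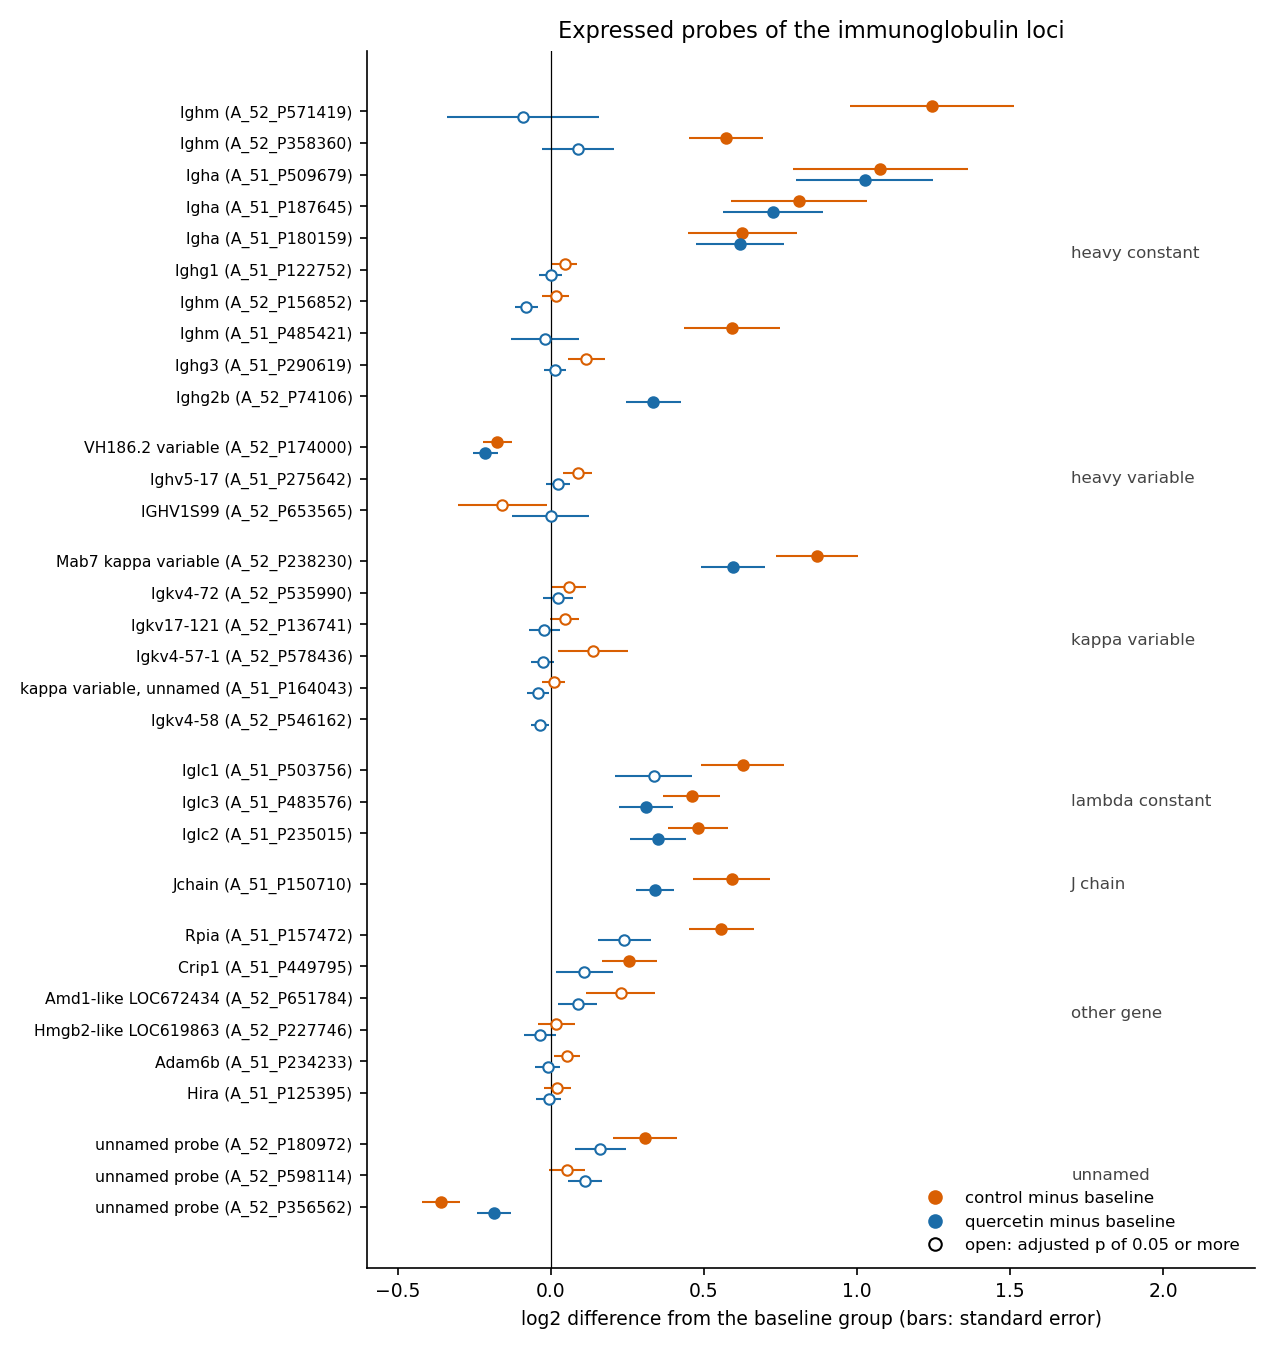
Log2 difference from the baseline group of the expressed members, by class (points: control, orange, and quercetin, blue; bars: standard error; open points: adjusted p of 0.05 or more). The 3 Igha probes lie between 0.62 and 1.08 for both groups. The Ighm probes that were higher in the control group, at 0.57 to 1.25, lie between -0.09 and 0.09 for the quercetin group. The Ighm values are a description, as Ighm led to the choice of loci.

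The mu constant region is the heavy chain of IgM, the first antibody a B cell makes. Its brightest probe (A_52_P571419, chromosome 12, 113868697 to 113868756) was the one whose quercetin value led to this choice of loci. In the baseline mice its log2 ratio was lowest at -1.50, with a median of -0.63 and a highest value of 0.46 (mean -0.54 ± 0.68, SD, n = 12). In the control mice it ran from -0.48 over a median of 0.82 to 2.14 (mean 0.71 ± 0.74, SD, n = 12). In the quercetin mice it ran from -1.40 over -0.72 to 0.52 (mean -0.63 ± 0.65, SD, n = 12). All 12 control mice lay above the baseline median and 8 above the highest baseline mouse, whereas the baseline and quercetin mice covered nearly the same range.

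Control exceeded baseline by 1.25 on the log2 scale for this probe (standard error 0.27, 2.37-fold). Quercetin minus baseline was -0.09 (standard error 0.25), with 6 of 12 quercetin mice above the baseline median. Quercetin minus control was -1.34, the second lowest value among 18372 probes (rank 2), and 7 of 12 quercetin mice lay below the lowest control mouse. Within slides, each a glass of 4 arrays scanned together, control minus baseline was above 0 on 9 of 9 slides (0.08 to 3.25), and with slide as a block it was 1.23. The control and the quercetin values of this probe both entered the difference by which it was chosen, so these are a description, with no test.

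Of the 3 further Ighm probes, 2 were also highest in the control group, with smaller differences. They read the same gene on the same arrays as the probe that led to the choice and are not separate evidence. A_52_P358360 (113866458) averaged -0.29 ± 0.28 for baseline, 0.28 ± 0.34 for control and -0.20 ± 0.33 for quercetin mice (SD, n = 12 each). Control exceeded baseline by 0.57 (standard error 0.12, adjusted p = 0.00119), with all 12 control mice above the baseline median, and quercetin minus baseline was 0.09 (adjusted p = 0.644). A_51_P485421 (113869227) averaged -0.22 ± 0.31, 0.37 ± 0.49 and -0.24 ± 0.28, a difference of 0.59 for control (standard error 0.16, adjusted p = 0.0076) and of -0.02 for quercetin (adjusted p = 0.931). The remaining probe, A_52_P156852 (113864972), differed by 0.02 (95% interval -0.07 to 0.11) and -0.08 (95% interval -0.16 to -0.00), neither of them called. It lies nearest to Ighd, downstream of the others, and its values in the 36 mice ran only from -0.13 to 0.34.

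The difference of quercetin from control was -0.48 for A_52_P358360 and -0.61 for A_51_P485421, and -0.10 for A_52_P156852. With A_52_P571419 these make 3 members called lower and 0 higher in that comparison, in which 1.14% of all probes were called lower and 2.27% higher (3.41% in all). No tested member was without overlap between those groups, where 0.0272% of all probes were so upwards and 0.0109% downwards. Since this contrast chose the loci, nothing is read from that count.

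The alpha constant region is the heavy chain of IgA, the antibody of mucosal surfaces. Its brightest probe (A_51_P509679, chromosome 12, 113706582 to 113706641) ran from -1.71 over a median of -0.93 to 0.03 in the baseline mice (mean -0.89 ± 0.55, SD, n = 12). The control mice ran from -1.21 over 0.23 to 1.72 (mean 0.19 ± 0.93, SD, n = 12), and the quercetin mice from -0.90 over -0.05 to 1.31 (mean 0.14 ± 0.65, SD, n = 12). The groups overlapped: 7 control and 5 quercetin mice exceeded the highest baseline mouse, and 2 control mice, but no quercetin mouse, lay below the baseline median.

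For this probe control exceeded baseline by 1.08 (standard error 0.29, 2.11-fold, adjusted p = 0.00794), and on 8 of 9 slides. Quercetin exceeded baseline by 1.02 (standard error 0.22, 2.04-fold, adjusted p = 0.00281), also on 8 of 9 slides. The other expressed Igha probes, A_51_P187645 and A_51_P180159, were higher by 0.81 and 0.63 in the control group (adjusted p = 0.00969 and 0.0118) and by 0.73 and 0.62 in the quercetin group (adjusted p = 0.00361 and 0.00454). Quercetin minus control was -0.05, -0.08 and -0.01 for the 3 probes. The 3 probes lie within the same constant region and are not separate evidence. Scaling the arrays to a common spread ended the quercetin calls of all 3 (adjusted p = 0.154 to 0.21), at differences of 0.73 to 1.34. Another probe, A_51_P270661, is described in the files as the I alpha exon, which is transcribed from the unswitched locus, and was too dim to be tested, with means of -0.00, -0.04 and -0.02.

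**Figure D2:**
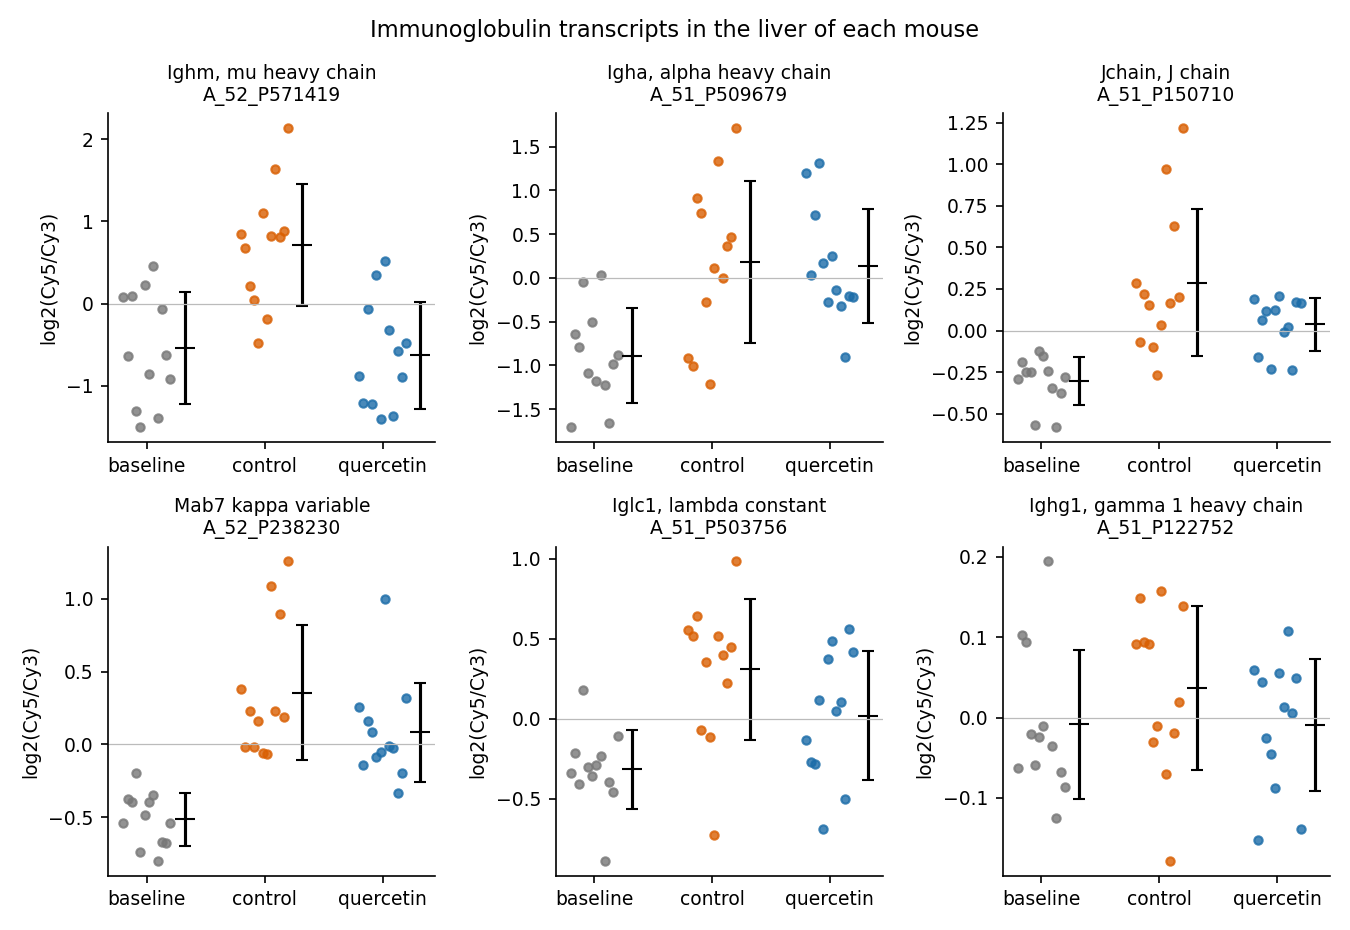
Log2(Cy5/Cy3) of 6 probes in each mouse (points) with the group mean and SD (bars, n = 12), each panel on its own axis. The Ighm means were -0.54, 0.71 and -0.63 in the baseline, control and quercetin mice. They are a description, as this probe led to the choice of loci. Igha is higher than baseline in both later groups, and the Ighg1 means lie within 0.05 of each other.

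The gamma constant regions are the heavy chains of IgG, the main antibody of serum. Ighg1 (A_51_P122752) differed from baseline by 0.04 in the control group (95% interval -0.04 to 0.13) and by -0.00 in the quercetin group (95% interval -0.08 to 0.08). Ighg3 (A_51_P290619) differed by 0.12 (adjusted p = 0.15) and 0.01 (adjusted p = 0.837), and its highest control mouse, at 0.68, stood apart from a control median of 0.08. Neither was called, and the intervals for Ighg1 leave room for changes of at most 0.13 on this scale.

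Ighg2b (A_52_P74106) passed the brightness limit against baseline only with quercetin replicate 2 among the arrays, so its values are a description. Its baseline values ran from -0.58 over -0.32 to -0.19, its control values from -0.41 over 0.25 to 1.50, and its quercetin values from -0.62 over 0.08 to 0.32. Quercetin minus baseline was 0.34 (standard error 0.09), and 1.14 with the processed signals. The probe fell under the brightness limit in the comparison of control with baseline and was not tested there, although 10 of 12 control mice exceeded the highest baseline mouse.

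The heavy constant probes that stayed near background gave bounds rather than levels. Of the 2 probes of Ighg2c, an IgG2 gene, A_51_P311235 was well above background in 0 baseline, 6 control and 5 quercetin mice, with control and quercetin mice reaching 1.32 and 1.25 against a baseline highest of 0.01. A_51_P351953 did not show this, being well above background in 10, 8 and 12 mice, with means of -0.00, 0.03 and -0.01. Ighd, the heavy chain of IgD, had means of -0.09, -0.01 and 0.02, and the 2 Ighe probes had group means between -0.04 and 0.03. The other Ighg1 probes, A_51_P461067 and A_52_P1054013, were well above background on 7 and 8 of the 36 arrays.

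Jchain, the gene of the J chain, lies on chromosome 5 outside the antibody loci. Its brighter probe (A_51_P150710, 89595455 to 89595514) ran from -0.58 over -0.26 to -0.12 in the baseline mice (mean -0.30 ± 0.15, SD, n = 12). The control mice ran from -0.26 over 0.18 to 1.22 (mean 0.29 ± 0.44), and the quercetin mice from -0.24 over 0.09 to 0.21 (mean 0.04 ± 0.16). In the control group 11 mice exceeded the highest baseline mouse and in the quercetin group 9 did. The quercetin mice were close together, and the control mice were spread upwards.

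Control exceeded baseline by 0.59 (standard error 0.13, 1.51-fold, adjusted p = 0.00135), on 9 of 9 slides. Quercetin exceeded baseline by 0.34 (standard error 0.06, 1.27-fold, adjusted p = 0.000537), on 8 of 9 slides. Quercetin minus control was -0.25. Both differences from baseline kept their call under every alternative processing tried, 16 for control and 20 for quercetin. The dimmer probe (A_51_P150705), not bright enough for a test, had means of -0.13, 0.21 and 0.06 and was well above background in 8, 12 and 11 mice.

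The 250 bases before the start of Jchain are shown as the RefSeq promoter table gives them (GRCm38.p6, chr5:88527898-88528147, minus strand, a different build from the array files). No other member was looked up there.
Jchain: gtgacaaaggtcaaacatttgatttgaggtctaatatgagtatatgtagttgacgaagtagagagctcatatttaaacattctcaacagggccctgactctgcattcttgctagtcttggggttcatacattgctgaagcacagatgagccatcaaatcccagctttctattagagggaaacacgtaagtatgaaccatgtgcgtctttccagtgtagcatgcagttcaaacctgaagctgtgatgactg
The octamer found in antibody gene promoters, ATTTGCAT or ATGCAAAT on the other strand, has 0 matches in this window, and 526 of 32851 promoter windows of the same length (1.6%) hold it. The sequence is in lower case throughout as no match was marked, and nothing follows from this about the factors that bind the gene.

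Kappa is the light chain of most mouse antibodies, but its constant region could not be read. The 2 Igkc probes (A_52_P829560 and A_52_P600555) had Cy5 signals of 1.59 and 1.38 times background and were well above it on 2 of the 36 arrays each, all in the quercetin group. That group holds replicate 2, on which 96.7% of spots were well above background, so nothing is read from this. The kappa chain was therefore followed through a variable segment probe, A_52_P238230 (chromosome 6, 68186721 to 68186780), which the files describe as the variable region of antibody Mab7.

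The Mab7 probe separated the baseline from the control mice without overlap. It ran from -0.80 over -0.51 to -0.20 in the baseline mice (mean -0.51 ± 0.18, SD, n = 12) and from -0.07 over 0.21 to 1.26 in the control mice (mean 0.35 ± 0.46, SD, n = 12). The quercetin mice ran from -0.33 over -0.02 to 1.00 (mean 0.08 ± 0.34, SD, n = 12), and 11 of them exceeded the highest baseline mouse. It was the only member of the 30 tested whose control mice all lay above all baseline mice, a separation shown by 0.169% of all probes, and no tested member was separated downwards (0.422% of all probes). Control exceeded baseline by 0.87 (standard error 0.13, 1.83-fold, adjusted p = 5.1e-05) and quercetin by 0.60 (standard error 0.10, 1.51-fold, adjusted p = 0.0004), each on 9 of 9 slides. Quercetin minus control was -0.27. Scaling the arrays to a common spread ended the quercetin call (0.72, adjusted p = 0.102) and not the control call.

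The other expressed kappa variable probes showed no called difference. The segments A_52_P535990, A_52_P136741 and A_51_P164043 differed from baseline by 0.06, 0.04 and 0.01 in the control group and by 0.02, -0.02 and -0.04 in the quercetin group. Igkv4-58 was tested for quercetin only, at -0.04. Igkv4-57-1 (A_52_P578436) was at 1.37 in control replicate 5 against a control median of -0.03, and its difference of 0.14 was not called (adjusted p = 0.395). A dim probe close to the Mab7 probe (A_51_P390937, from 68186355) was not tested. Its means were -0.02, 0.03 and 0.04 in the baseline, control and quercetin mice.

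All 3 expressed lambda constant probes were higher in the control group. Iglc1 (A_51_P503756) ran from -0.89 over -0.32 to 0.18 in the baseline mice, from -0.73 over 0.42 to 0.98 in the control mice and from -0.69 over 0.08 to 0.56 in the quercetin mice. It was higher by 0.63 in the control group (standard error 0.14, 1.54-fold, adjusted p = 0.00171). For quercetin its difference was 0.34 (95% interval 0.08 to 0.60, adjusted p = 0.0651), which did not pass but did so under 7 of the 20 alternatives. The groups overlapped, with 9 control and 4 quercetin mice above the highest baseline mouse.

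Iglc3 (A_51_P483576) and Iglc2 (A_51_P235015) were higher in both later groups. For Iglc3 control exceeded baseline by 0.46 (adjusted p = 0.000997) and quercetin by 0.31 (adjusted p = 0.0172). For Iglc2 the differences were 0.48 (adjusted p = 0.000883) and 0.35 (adjusted p = 0.00989). All 12 control mice and all 12 quercetin mice lay above the baseline median for both probes. Centring the arrays on their medians ended both quercetin calls (adjusted p = 0.0823 and 0.0716). The quercetin call of Iglc3 was lost under 4 of the 20 alternatives, among them scaling the arrays to a common spread (adjusted p = 0.0703). That of Iglc2 was lost under 2, the other being the Cy5 channel alone (adjusted p = 0.155).

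The 6 lambda variable probes and a second Iglc1 probe were too dim to be tested. The brightest, A_52_P622355, was well above background in all 12 mice of each group, with means of 0.10, 0.12 and 0.07. Iglv1 probe A_51_P503757 was well above background in 1 baseline, 7 control and 5 quercetin mice. A_52_P672903 was so in 1, 5 and 5 mice, A_52_P383114 in 0, 6 and 4, and Iglc1 probe A_52_P450277 in 6, 11 and 11. For A_52_P450276 the numbers were 0, 2 and 3, and for A_52_P829408 they were 0, 2 and 1. These counts were not tested and depend on the brightness of each array.

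Of the 62 heavy variable probes only 3 were bright enough to be tested, and none of these was called higher. The dimmer heavy variable probes were not tested, so the class as a whole is not compared with the constant regions. The brightest probe (A_52_P174000), described in the files as VH186.2, ran from 0.05 to 0.25 in the baseline mice, from -0.26 to 0.17 in the control mice and from -0.23 to 0.10 in the quercetin mice. It was lower by 0.17 in the control group (adjusted p = 0.00857) and by 0.21 in the quercetin group (adjusted p = 0.000918), where 10 of 12 mice lay below the lowest baseline mouse. Centring the arrays on their medians ended both calls (adjusted p = 0.253 and 0.0794), and the Cy5 channel alone also ended the quercetin call (adjusted p = 0.054). Ighv5-17 differed by 0.09 and 0.02, and IGHV1S99 by -0.16 and -0.00, none of them called.

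**Figure D3:**
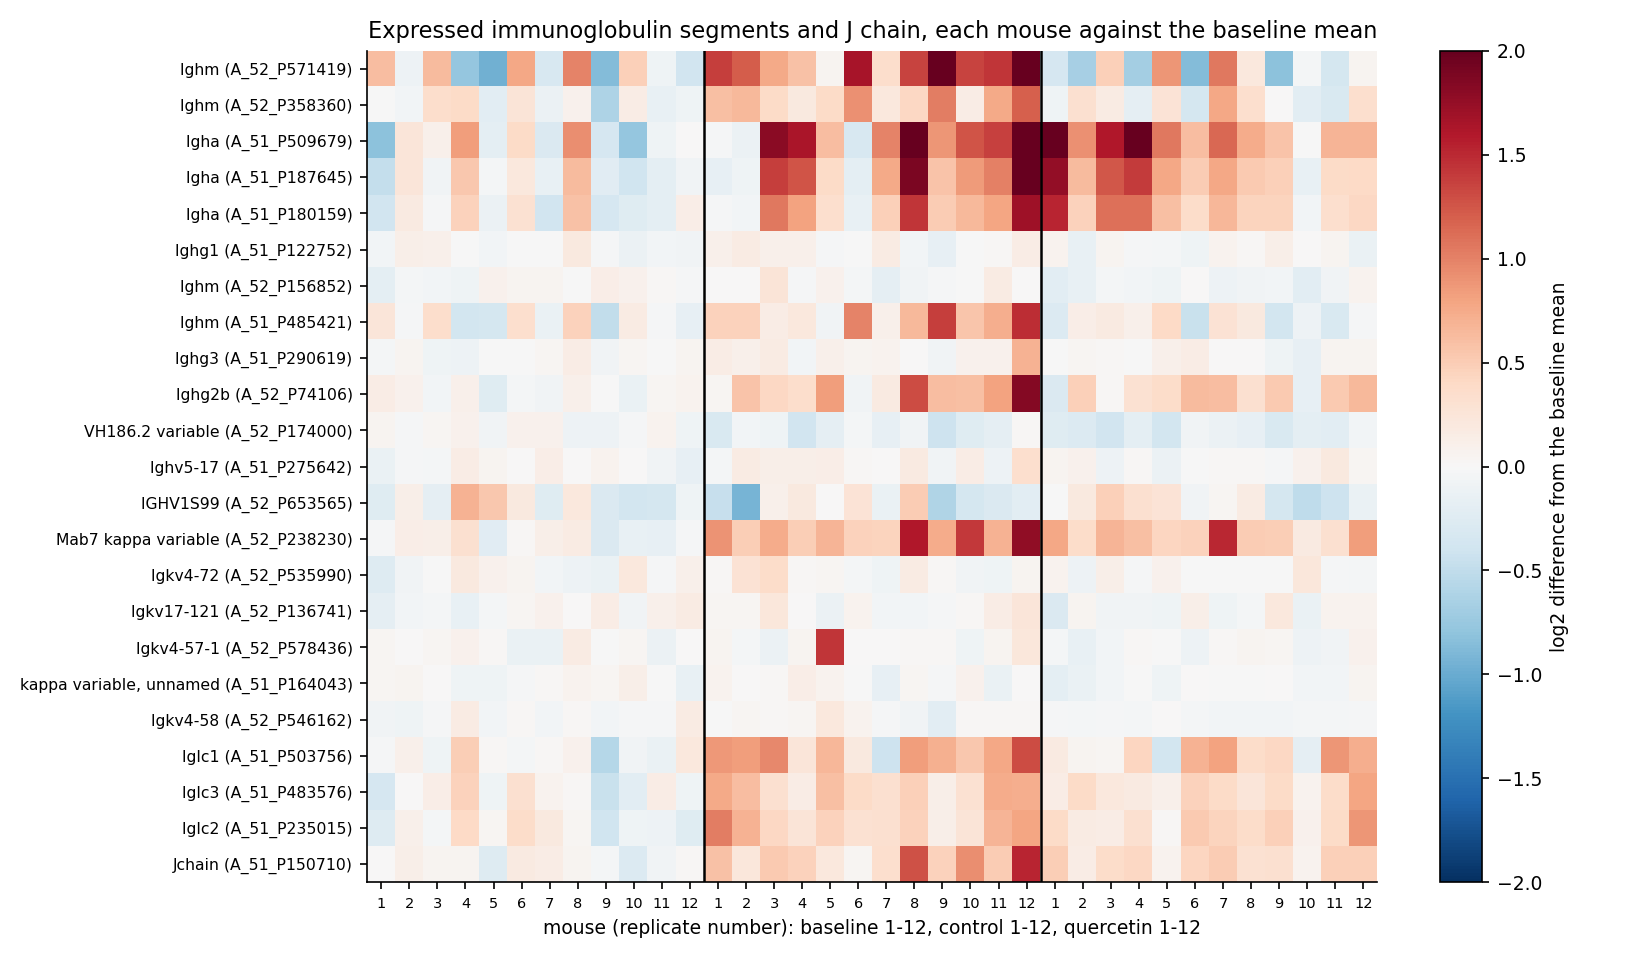
Log2 difference of each mouse from the baseline mean for the 23 expressed immunoglobulin segments and J chain probes (rows) in 12 baseline, 12 control and 12 quercetin mice (columns, colour limited at 2 in both directions). The alpha, kappa Mab7, lambda and J chain rows are raised in both later groups, 3 of the 4 Ighm rows in the control group, and control replicates 8 and 12 are high on most of these rows. The Ighm rows are a description, as Ighm led to the choice of loci.

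The spread between mice of a group was wide for the constant regions. The median SD of the 13 expressed constant region probes was 0.26 for the baseline, 0.44 for the control and 0.32 for the quercetin mice. Over all expressed probes it was 0.14, 0.14 and 0.13. Control replicate 12 was the highest control mouse for Ighm (2.14), Igha (1.72), the Mab7 probe (1.26) and Jchain (1.22). Control replicate 8 was next for Igha (1.33), the Mab7 probe (1.08) and Jchain (0.97), but at 0.82 was near the control median for Ighm. Control replicates 1, 2 and 6, by contrast, were low for Igha (-0.91, -1.01 and -1.21) while at 0.84, 0.68 and 1.11 for Ighm.

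Whether heavy, light and J chains rose in the same mice was asked with correlations over the 12 mice of each group, 4 pairs of chains in 3 groups. With the kappa constant probe, 0 of 12 relations passed (adjusted p = 0.948 for Pearson's r in each), and as that probe was at background the family says nothing about the kappa chain. The Mab7 probe was then used in its place, a choice made after seeing the data, and 5 of 12 relations passed (permutation test, 100000 resamples, two-sided, adjusted over 12).

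Kappa stands here and below for the Mab7 probe alone. Among the pairs tested, this probe and the J chain went together most closely in the control and the quercetin mice. In the control mice Pearson's r was 0.958 and Spearman's rho 0.909 (adjusted p = 0.00012 and 0.00144, permutation), and r was 0.864 without the 2 mice farthest from the median of the kappa values and 0.929 after slide means were taken out. In the baseline mice r was 0.679 and rho 0.734 (adjusted p = 0.0481 and 0.0324), with 0.835 without 2 mice and 0.783 within slides. In the quercetin mice r was 0.615 and rho 0.643 (adjusted p = 0.0515 and 0.0574), with 0.605 and 0.709, and the relation passed within slides (adjusted p = 0.016). The control relation held without the 2 mice, although 3 control mice (replicates 8, 10 and 12, at 0.89 to 1.26 for kappa) lie above the next, at 0.38.

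Alpha and kappa gave r of 0.679 in the baseline mice (rho 0.72, adjusted p = 0.0481 and 0.0324) and 0.656 in the control mice (rho 0.566, adjusted p = 0.0499 and 0.1). Both rest on the 2 most distant mice, without which r was 0.43 in each group, and neither passed within slides (adjusted p = 0.186 and 0.0642), and in the quercetin mice r was 0.376. Kappa and lambda gave r of 0.745 in the baseline mice (rho 0.699, adjusted p = 0.0236 and 0.0348), which also rests on 2 mice (0.349 without them) and did not pass within slides (adjusted p = 0.0642). In the control and quercetin mice it was 0.583 and 0.436 (adjusted p = 0.0779 and 0.187). Mu and kappa gave r of 0.268, 0.542 and 0.51 in the baseline, control and quercetin mice (adjusted p = 0.398, 0.103 and 0.111), none of which passed. Within slides the quercetin relation did (r of 0.718, adjusted p = 0.016), and with the arrays centred on their medians the control and the quercetin relations did (adjusted p = 0.0487 and 0.0453). Without the 2 most distant mice r was 0.263 and 0.244 in these groups.

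**Figure D4:**
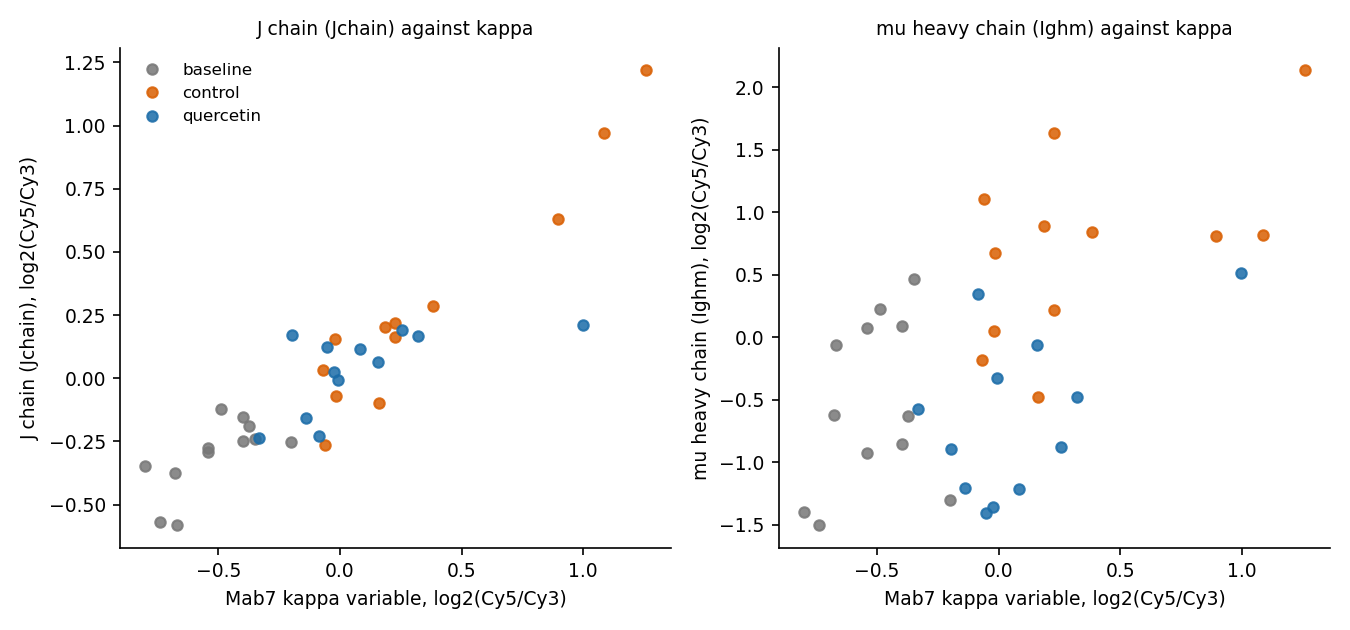
Log2(Cy5/Cy3) of Jchain (left) and of Ighm A_52_P571419 (right) against the Mab7 kappa variable probe in each mouse, coloured by group. The J chain follows the Mab7 probe within the control mice (r of 0.958). For Ighm r was 0.268, 0.542 and 0.51 in the baseline, control and quercetin mice, and none of these passed. The group levels of Ighm led to the choice of loci and are a description.

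The genes outside the loci whose pattern over the 36 mice, after group means were taken out, was most like the mean of the 13 constant region probes were Slc23a1 (r of 0.638), Tnni2 (0.617), Dntt (0.615), Iqcg (0.61) and Hmgcs1 (0.607). Among the members the Mab7 probe had 0.776 and Jchain 0.755, while the other expressed kappa variable probes had -0.01 to 0.11. These values are a description over all expressed probes, with shared arrays, and have no p.

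The expressed plasma cell genes, a list chosen like the members with earlier results known, were in part higher after 12 weeks. In the control group 4 of 7 tested genes were higher and 1 was lower, and in the quercetin group 4 were higher and 0 lower, with medians of 0.27 and 0.21. Of all probes 12.6% were called higher and 12.3% lower in the control group, and 8.39% and 8.59% in the quercetin group. Derl3, which passes misfolded proteins out of the endoplasmic reticulum, was higher by 1.28 in the control (adjusted p = 0.0232) and by 1.37 in the quercetin group (adjusted p = 0.00104). Creld2, a chaperone of the same compartment, was higher by 1.06 (adjusted p = 0.0169) and 0.93 (adjusted p = 0.00845), and Edem1, of the same quality control, by 0.29 and 0.21. These 3 are also active in hepatocytes, as is Xbp1, a regulator of secretory cells. Xbp1 was lower by 0.31 in the control group (adjusted p = 0.0186) and at -0.08 in the quercetin group. The other gene called higher, Cd38, was higher by 0.17 in the control (adjusted p = 0.0234) and by 0.23 in the quercetin group (adjusted p = 0.0254). The remaining tested genes of the list, Sdc1 and Fkbp11, were not called. Sdc1, with a Cy5 signal of 136 times background, differed from baseline by -0.08 for control (adjusted p = 0.544) and 0.004 for quercetin (adjusted p = 0.977). Fkbp11 differed by 0.27 for control (adjusted p = 0.183) and 0.13 for quercetin (adjusted p = 0.467).

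The defining regulators of plasma cells were near background. Prdm1, Irf4 and Tnfrsf17 were well above it on 6, 2 and 1 of the 36 arrays. Mzb1 and Pou2af1 were well above background on 36 but under the brightness limit, with means between -0.09 and 0.06 in the 3 groups. The summed level of the 12 genes, in units of 1000 of quantile normalized Cy5 signal, was 35.23 to 86.2 for baseline, 36.14 to 164.4 for control and 50.64 to 112.4 for quercetin mice.

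Few B cell genes were bright enough to be tested. Of 18 genes 6 were expressed. In the control group 0 of 4 tested were called, where 24.9% of all probes were. In the quercetin group 1 of 5 was higher, where 8.39% of all probes were. This was Vpreb3, a partner of the early B cell receptor, by 0.23 (adjusted p = 0.0434). Cd79b, the signalling chain of the B cell receptor, was at 0.21 (adjusted p = 0.179) and 0.16 (adjusted p = 0.308). The summed level of the list was 4.336 to 7.412, 5.052 to 7.281 and 4.492 to 7.77 in the baseline, control and quercetin mice.

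Of the 8 genes of recombination and class switch, 5 were expressed. In the control group 2 of these were higher and 1 lower, where 12.6% of all probes were called higher and 12.3% lower. In the quercetin group 1 was higher and 0 lower, where 8.39% and 8.59% of all probes were. Ung, a uracil glycosylase of switching and of DNA repair in all cells, was higher by 0.49 in control (adjusted p = 0.0213) and 0.70 in quercetin mice (adjusted p = 0.00179). Lig4, a ligase of end joining, was higher by 0.25 and Dclre1c, the nuclease that opens hairpins, lower by 0.38 in the control group, neither of them called in the quercetin group. Rag1 and Rag2, the recombination enzymes of lymphocytes, were too dim to be tested.

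Of the 10 genes of antibody receptors and transport, 8 were expressed and 1 was called in each comparison. Fcgr1, a high-affinity IgG receptor of macrophages, was higher by 0.44 in the control group (adjusted p = 0.0238), and Fcgr4, another IgG receptor, by 0.37 in the quercetin group (adjusted p = 0.019). Pigr, which carries polymeric IgA and IgM across epithelia, differed by 0.02 and 0.03.

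**Figure D5:**
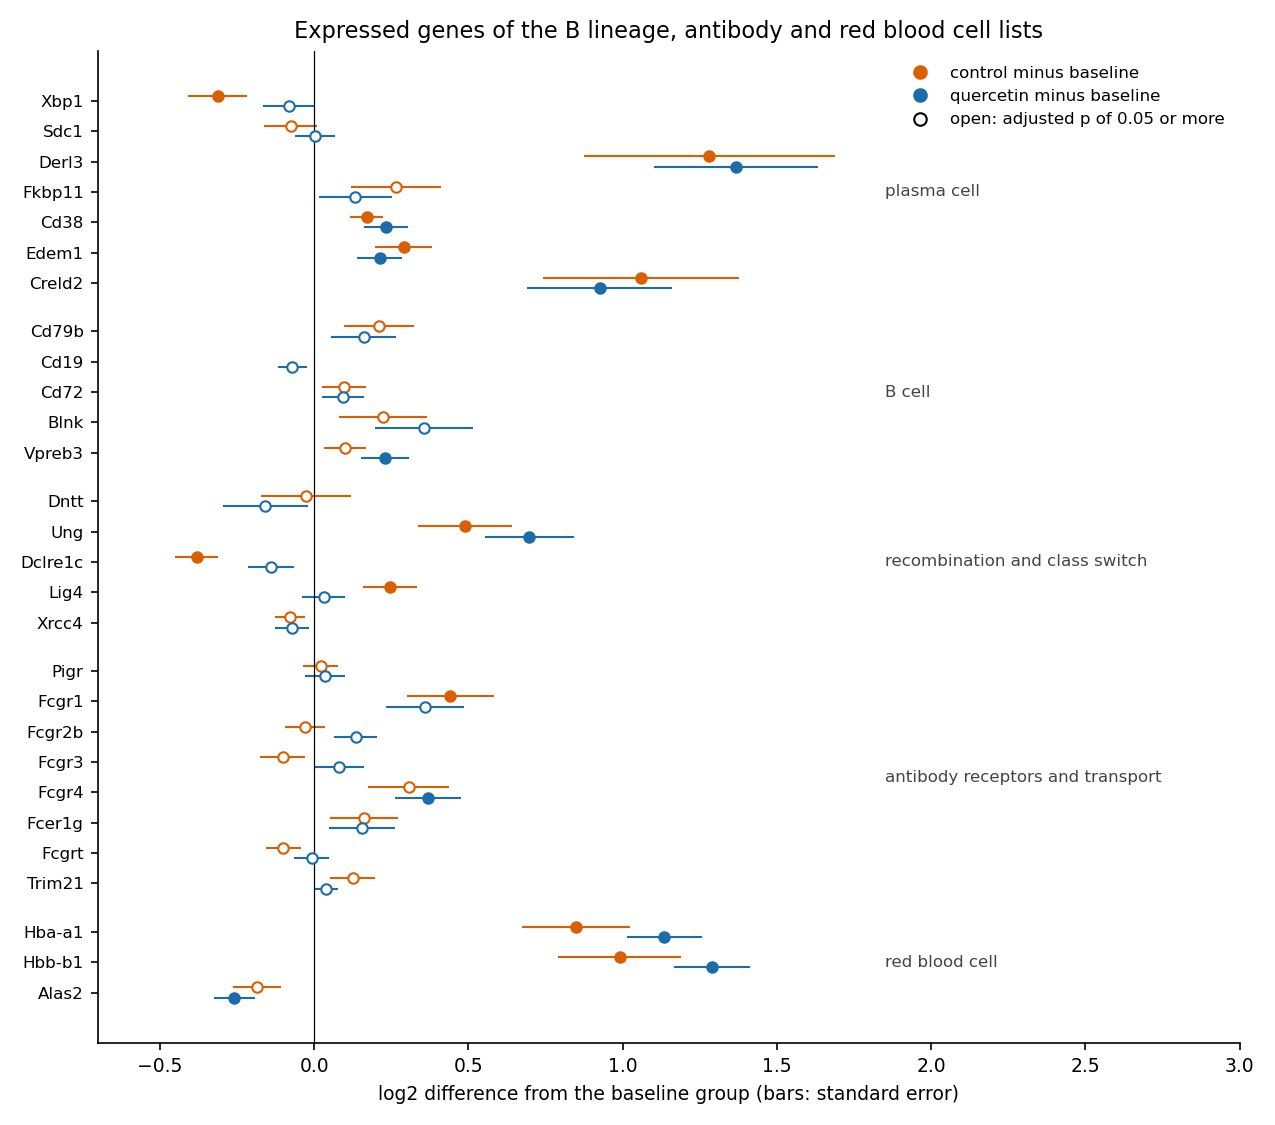
Log2 difference from the baseline group of the expressed genes of 5 lists (points: control, orange, and quercetin, blue; bars: standard error; open points: adjusted p of 0.05 or more). Derl3, Creld2, Ung and the 2 globin genes are higher than baseline in both groups, and the B cell genes lie near 0.

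Globin genes were higher in the same comparisons. Of 5 red blood cell genes 3 were expressed. Hba-a1 was higher by 0.85 in control and 1.14 in quercetin mice (adjusted p = 0.00103 and 9.65e-07), and Hbb-b1 by 0.99 and 1.29 (adjusted p = 0.000832 and 1.74e-07), while Alas2, the first enzyme of heme synthesis in red cells, was at -0.19 (adjusted p = 0.0789) in control and lower by 0.26 in quercetin mice (adjusted p = 0.00903). The summed level of the list was 58.93 to 109.3 for baseline, 95.95 to 342.5 for control and 118.3 to 255.1 for quercetin mice.

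Of the white cell markers 1 gene was called. S100a9, the expressed neutrophil gene of 4 on the array, was higher by 0.61 and 0.58 (adjusted p = 0.00642 and 0.00347), with summed levels of the list of 0.6507 to 1.378, 0.8359 to 1.803 and 0.9436 to 2.098. None of the 3 T cell genes tested in the control group and 4 in the quercetin group, nor of the 7 Kupffer cell genes tested in each, was called, and no NK cell gene was expressed. The Kupffer cell medians were 0.28 and 0.22, with differences of 0.07 to 0.76 in the control and 0.12 to 0.89 in the quercetin group. The part of blood or of other cells in the antibody transcripts was not tested.

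Genes and unnamed probes that share the intervals with the antibody segments were also tested. Of 9 in the control group 3 were higher and 1 was lower, where 12.6% of all probes were called higher and 12.3% lower. Rpia, an enzyme of the pentose phosphate pathway that lies beside the kappa constant region, was higher by 0.56 in the control group (standard error 0.11, adjusted p = 0.000492) and at 0.24 in the quercetin group (adjusted p = 0.0589). Crip1, a small LIM protein at the heavy chain end, was higher by 0.26 (adjusted p = 0.0393), a call lost under 5 of the 16 alternatives, among them slide as a block (adjusted p = 0.111). An unnamed probe on chromosome 6 (A_52_P180972) was higher by 0.31 (adjusted p = 0.0333), and another (A_52_P356562) was lower by 0.36 in the control (adjusted p = 0.00016) and by 0.19 in the quercetin group (adjusted p = 0.0197). Adam6b, which lies inside the heavy chain locus, differed by 0.05 and -0.01, and Hira, beside the lambda locus, by 0.02 and -0.01.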

How the data were processed

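The authors hybridized the Cy5-labelled RNA of each of 36 livers with a Cy3-labelled pool and quantified the scans with Feature Extraction 10.5.1.1 (submitters' notes and file headers). The deposited median and background intensities of each spot are not normalized. The authors' processed table of 23256 spots holds log2 values that, after a constant per spot and per array, equal log2(Cy5/Cy3) of the median signals without background correction (residual SD 6.2e-07). Each array of it has the same median, 8.9613, so its centring per array is known and its scale and direction are settled. It holds no kappa constant value and was used as an alternative.

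Median signals were corrected by normexp (offset 50) and normalized by loess within arrays, and spots of a probe were averaged. Expressed probes had mean Cy5 and Cy3 signals over 2 times background. Pairs of groups were compared with limma 3.58.1 (lmFit and eBayes, two-sided, Benjamini-Hochberg over all expressed probes, threshold 0.05) in R 4.3.3. On simulated data with 200 changed probes the control against baseline fit recovered 95 of 100 changed by 0.5 and 99 of 100 changed by 1, with 12 false calls among 17778 probes. The changed probes were drawn from all expressed probes, with independent noise, and their median SD was 0.14 in both groups. The constant region probes spread more, with a median SD of 0.26 in baseline and 0.44 in control mice, so this recovery does not describe them. The members and lists were chosen with earlier results of these data known. Named were the members called in any comparison, the constant region and J chain probes, and the brightest expressed probe of each class. Genes of the lists were named in part, among them all 7 tested genes of the plasma cell list. A gene of a list is represented by its brightest expressed probe. Of 41174 probes 24496 were named by accession, 8620 by another name and 8058 not at all. The lists of plasma cell, B cell, recombination, antibody receptor, T cell, NK cell, Kupffer cell, neutrophil, red blood cell, endothelial and hepatocyte genes are given as counts. Of the endothelial genes 1 of 4 was lower in the control group (Pecam1, -0.26) and 0 changed in the quercetin group, and of 6 hepatocyte genes 2 were lower in each (Ttr and Cps1). Slide, array position, replicate number, array weights, background correction, normalization, filter, test and samples were varied as alternatives. The number of arrays limits the precision. The labels name separate mice as samples. Correlations used Python 3.11.15 with scipy 1.17.1, and figures matplotlib 3.10.9.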

Additional observations from a re-analysis of the deposited data

How the results depend on the processing

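Under 16 alternatives for control against baseline and 20 for each quercetin comparison, 1034 values of single members kept their side of the threshold (47 of them uncalled values that changed sign), 51 lost and 11 gained a call, and none of the called values changed sign. For control against baseline, 13 to 17 members were higher. Median centring of the arrays, which moved the median of all probes to 0.12, left 1 lower member (2 in the report) and a members' median of 0.33, relative to 0.18 in the report. That median was 0.035 with no filter on dim probes, over 208 members, and 0.0814 for probes well above background on 12 arrays, both by construction over more and dimmer members. For quercetin against baseline, median centring left 5 higher and 0 lower members (8 and 2 in the report), scaling the arrays to a common spread 2 and 1, and the Cy5 channel alone 1 lower and a median of 0.0772 (0.0228 in the report). Combinations with quercetin replicate 2 left out were chosen after seeing the data: median centring gave 0 lower, scaling 2 higher and 1 lower, and the Cy5 channel alone 0 lower and a median of 0.10. Calls over all probes fell as well, from 3118 to 347 with median centring, 576 with scaling and 1214 with the Cy5 channel alone. For quercetin against control, a description since it chose the loci, 3 lower members became 0 with scaling, with or without replicate 2, 1 with the Cy5 channel alone and 1 with the replicate block, and the median of -0.09 became -0.0165 with no filter and -0.0257 with the Cy5 channel alone without replicate 2. All probes called there were 626, against 69 with median centring, 85 with scaling, 207 with the Cy5 channel alone, 266 with slide as a fixed block and 1000 with array weights. Against baseline the Cy5 channel alone called 2806 of all probes for control, in place of 4426. The cause of these changes was not tested. The count of correlations that passed was 0 with the kappa constant probe and 5 with the kappa variable probe. With the latter, 4 passed within slides and 9 with median centring.

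The numbers of the replicates were not used to pair mice. The median correlation of same-numbered mice was 0.05 for control and baseline (4 of 12 pairs over 0.1), 0.01 for quercetin and baseline (1 of 12) and -0.03 for quercetin and control (3 of 12). Mice with different numbers were not compared, so these values cannot exclude a pairing. With the replicate block 15 members were called for control against baseline and 10 for quercetin against baseline. Dim probes limit the account of the kappa constant, lambda variable and most variable segments, which lie near background.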
